A study of Mus musculus with 6 samples.

Results

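The genes described here are 10 transcripts that cells make when the MAP kinase ERK is active and that mostly act to restrain it. They are the dual-specificity phosphatases Dusp1, Dusp4, Dusp5 and Dusp6, the Sprouty genes Spry1, Spry2 and Spry4, the Sprouty-related genes Spred1 and Spred2, and the ETS transcription factor Etv4. Each was taken from the deposited expression table by its gene name. All 10 names matched 1 Ensembl gene each, out of 53700 genes listed, and all 10 were among the 12510 genes tested. The RNA-seq compared SL4, a luciferase-expressing mouse colorectal cancer (CRC) cell line, in 2 groups of 3 libraries. The pLV-SEMA6A group carried a lentivirus for stable SEMA6A overexpression, and the pLV-Control group did not overexpress it. No other treatment is named for either group. The sources used here describe no independently made lines and do not say whether the libraries came from separate cultures, so the p-values measure only the spread between these libraries. The sample titles do not say whether the control cells carried a control lentivirus. An effect of SEMA6A, an effect of transduction and a difference between the lines cannot be told apart.

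ERK is switched on when growth factor receptors load RAS with GTP, which starts a chain of kinases from RAF to MEK to ERK. Active ERK raises the transcription of its own inhibitors. Sprouty and Spred proteins act upstream and limit the activation of RAS and RAF, whereas DUSP phosphatases remove the activating phosphates from the MAP kinases themselves. The transcripts of these inhibitors are therefore often read as a sign of ERK output. Phosphorylated ERK itself was not among the data analysed here.

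Every pLV-Control library listed Sema6a at 0, and its 3 pLV-SEMA6A values were 98.7, 118 and 112 TPM, the direction that the labels give. TPM, a library's transcript share on a fixed total, is scaled for transcript length, so levels can be compared between genes, but it keeps no sequencing depth. SL4 is labelled as a CRC line, yet 9 of 10 colon epithelial markers were below 0.5 TPM in every library, and Epcam, Cdx1 and Cdx2 were at 0 throughout. The summed level of these 10 markers was 1.91 to 2.82 TPM in pLV-Control and 0.53 to 1.33 TPM in pLV-SEMA6A. The difference lay in Lgals4, the only 1 of them tested. It was at 1.78, 2.33 and 2.33 TPM across pLV-Control, against 0, 0.28 and 0.81 TPM across pLV-SEMA6A. All 6 leukocyte markers and all 4 endothelial markers were below 0.5 TPM in every library. The summed level of 7 mesenchymal markers was 1042 to 1076 TPM in pLV-Control and 1657 to 1703 TPM in pLV-SEMA6A, most of it vimentin. Of the 5 mesenchymal markers tested, 4 were higher and 1, Pdgfrb, was lower. The part of this difference in the results below was not tested. The median log2(TPM + 1) of a pLV-SEMA6A library lay 0.093 below that of a pLV-Control library on average. Calls for the 10 genes and counts for the pathway lists are therefore also given with every library centred on its median.

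SEMA6A overexpression came with lower levels of 6 of the 10 genes and with no significant rise. Dusp4, Dusp6, Spry4, Spry2, Dusp1 and Etv4 were lower at an adjusted p under 0.05 (limma on log2(TPM + 1) across all genes, Benjamini-Hochberg adjustment). Spry1, Spred1, Spred2 and Dusp5 did not pass. The largest fall in mean TPM was 28.4%, for Dusp4. The added 1 TPM shrinks the fold changes of weakly expressed genes. In such bulk samples fewer cells with a transcript and less of it per cell cannot be told apart. None of the 10 genes reached an absolute log2 fold change of 0.5, the minimum used here for a differentially expressed gene (DEG). That minimum comes from the study's enrichment methods, and its RNA-seq methods state none. Large parts of the transcriptome also moved. Of all genes tested, 47.6% passed the same threshold of 0.05, 28.2% lower and 19.5% higher, against 60% of the 10 genes, all lower. DEGs made up 15.9% of all genes tested, 10.8% lower and 5.12% higher. The groups did not overlap in 6 of the 10 genes, all lower, against 58.5% of all genes tested (34.7% lower and 23.8% higher). Over the 10 genes the median log2 fold change was −0.20, and over all genes tested it was −0.064. With the libraries centred, 4 of the 10 were lower (Dusp4, Dusp6, Spry4 and Spry2) and Spry1 was higher, whereas 46.7% of all genes tested passed, 19.8% lower and 26.9% higher. On that scaling too, 0 of the 10 were DEGs, against 15.7% of all genes tested, 7.68% lower.

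**Figure D1:**
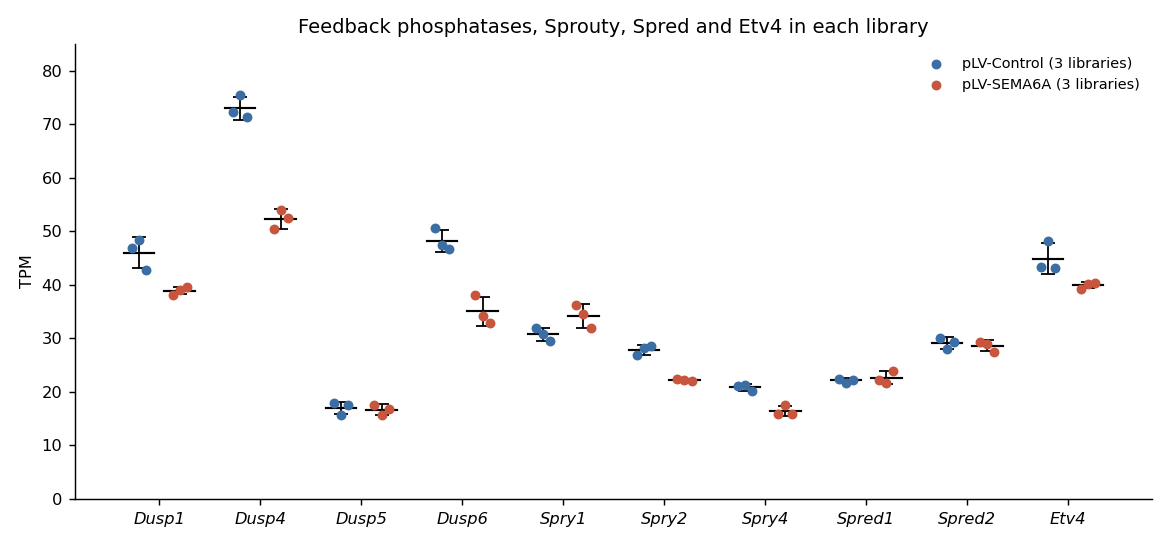
Level of each of the 10 genes in TPM (vertical axis), with a point for each library, a line for the group mean and bars for the SD. The 3 pLV-SEMA6A points lie below all 3 pLV-Control points for Dusp1, Dusp4, Dusp6, Spry2, Spry4 and Etv4, and the groups overlap for Dusp5, Spry1, Spred1 and Spred2.

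Dusp4, a nuclear phosphatase of ERK and JNK, was the most abundant of the 10 genes in both groups. It was at 72.4, 75.4 and 71.3 TPM across pLV-Control, against 50.4, 54.0 and 52.4 TPM across pLV-SEMA6A. Its means of 73.0 ± 2.14 and 52.3 ± 1.81 TPM (SD, n = 3 each) gave a log2 fold change of −0.47 (standard error, SE, 0.04, limma adjusted p = 0.000188). The highest pLV-SEMA6A library was well below the lowest pLV-Control library, and 14.3% of all genes tested fell further than Dusp4.

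Dusp6 is the cytoplasmic phosphatase that acts on ERK with high selectivity, and its transcript is among the most used readouts of ERK output. It was at 50.6, 47.4 and 46.65 TPM across pLV-Control, against 38.1, 34.2 and 32.8 TPM across pLV-SEMA6A. The log2 fold change was −0.45 (SE 0.06, limma adjusted p = 0.00171), and the groups did not overlap. The pLV-SEMA6A libraries were more spread (SD 2.76 TPM, n = 3) than the pLV-Control libraries (SD 2.08 TPM, n = 3). Without pLV-SEMA6A replicate 1, the highest of its group, the log2 fold change of Dusp6 was −0.51, which exceeds the minimum for a DEG.

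Dusp1, a nuclear phosphatase that acts mainly on p38 and JNK and responds to stress as well as to growth factors, fell less. It was at 46.95, 48.4 and 42.75 TPM across pLV-Control, against 38.15, 39.1 and 39.6 TPM across pLV-SEMA6A. The log2 fold change was −0.23 (SE 0.05, limma adjusted p = 0.0113). The groups did not overlap, but the call was lost with the libraries centred, where the log2 fold change was −0.14 (limma adjusted p = 0.0727). Dusp5, the nuclear phosphatase that is selective for ERK, did not pass the test. It was at 17.9, 15.8 and 17.5 TPM across pLV-Control, against 17.6, 15.7 and 16.8 TPM across pLV-SEMA6A. Its log2 fold change was −0.028 (95% interval −0.19 to 0.14, limma adjusted p = 0.763), and it was 0.065 with the libraries centred.

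Dusp1 and Dusp5 also differ in some of the known promoter elements found directly upstream of their start sites. Windows of 120 bases, at positions −160 to −41 from the start site, are shown for them and for Dusp6 and Spry2, which fell on both scalings. They come from RefSeq promoter sequences on GRCm38.p6, matched by symbol for 7 of the 10 genes. Dusp4, Spry4 and Etv4, all among the genes that fell, had no match. Capitals mark a cyclic AMP response element (CRE, TGACGTCA) and CArG boxes, to which serum response factor binds, searched on both strands.
Dusp1 (chr17:26508513-26508632, minus strand): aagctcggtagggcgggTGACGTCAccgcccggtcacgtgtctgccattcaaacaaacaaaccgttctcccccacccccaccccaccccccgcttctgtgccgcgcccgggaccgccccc
Dusp5 (chr19:53528985-53529104, plus strand): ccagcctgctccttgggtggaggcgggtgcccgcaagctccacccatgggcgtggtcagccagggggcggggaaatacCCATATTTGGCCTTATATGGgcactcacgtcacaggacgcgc
Dusp6 (chr10:99263071-99263190, plus strand): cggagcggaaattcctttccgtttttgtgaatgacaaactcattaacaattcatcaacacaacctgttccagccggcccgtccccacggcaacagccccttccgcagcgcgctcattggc
Spry2 (chr14:105896860-105896979, minus strand): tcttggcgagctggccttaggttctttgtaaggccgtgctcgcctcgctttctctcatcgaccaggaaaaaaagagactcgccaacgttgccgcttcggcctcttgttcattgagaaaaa
The CRE of Dusp1 started 143 bases upstream, and a match to it was found in 1.79% of all 32851 promoter windows of 300 bases. Dusp5 held a pair of adjoining CArG boxes that started 82 and 72 bases upstream, and 1.63% of all windows held at least 1. Neither element was found in the 300-base windows of the other 5 genes with a matched promoter. GC boxes (GGGCGG), not marked in capitals, were found in 5 of the 7 (35.7% of all windows). These were Dusp1, Dusp5, Spry1, Spred1 and Spred2. The AP-1 site TGANTCA (7.81% of all windows) and the extended ETS motif CCGGAAG (8.86% of all windows) were found in 0 of the 7. Shorter ETS motifs were not searched for, so ETS sites are not excluded. A match in letters is not evidence of binding.

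Among the Sprouty genes, whose products restrain receptor signalling to RAS and RAF, Spry2 and Spry4 fell and Spry1 did not. Spry2 was at 26.8, 28.3 and 28.5 TPM across pLV-Control, against 22.38, 22.24 and 22.02 TPM across pLV-SEMA6A. Its log2 fold change was −0.31 (SE 0.04, limma adjusted p = 0.00131), and the gap between the groups was wider than the range of either group. Spry4 was at 21.1, 21.3 and 20.1 TPM across pLV-Control, against 15.9, 17.6 and 15.9 TPM across pLV-SEMA6A. Its log2 fold change was −0.33 (SE 0.06, limma adjusted p = 0.00427), and its groups did not overlap either.

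Spry1 pointed the other way. It was at 31.9, 30.8 and 29.5 TPM across pLV-Control, against 36.3, 34.5 and 31.9 TPM across pLV-SEMA6A, so that the lowest pLV-SEMA6A library was level with the highest pLV-Control library. The log2 fold change was 0.15 (95% interval 0.0083 to 0.29, limma adjusted p = 0.0777). With the libraries centred it was 0.24 and passed (limma adjusted p = 0.0126). Without pLV-SEMA6A replicate 3, the lowest of its group, it was 0.20 and also passed (limma adjusted p = 0.0334). As a sum, the 3 Sprouty genes stood at 79.4 ± 1.23 TPM across pLV-Control, against 72.9 ± 2.66 TPM across pLV-SEMA6A (SD, n = 3 each).

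Neither Spred gene passed the test. Their products share the Sprouty domain and bring neurofibromin, which inactivates RAS, to the membrane. Spred1 was at 22.4, 21.7 and 22.3 TPM across pLV-Control, against 22.19, 21.73 and 23.99 TPM across pLV-SEMA6A, so its log2 fold change came to 0.030 (95% interval −0.092 to 0.15, limma adjusted p = 0.655). Spred2 was at 30.0, 28.0 and 29.4 TPM across pLV-Control, against 29.4, 28.9 and 27.4 TPM across pLV-SEMA6A, so its log2 fold change came to −0.026 (95% interval −0.14 to 0.088, limma adjusted p = 0.680). Both genes overlapped between the groups. Their sum was 51.3 ± 1.42 TPM across pLV-Control, against 51.2 ± 0.49 TPM across pLV-SEMA6A (SD, n = 3 each).

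Etv4, an ETS factor of the PEA3 group that ERK and FGF signalling induce, had the smallest change among the 6 genes that passed. It was at 43.4, 48.2 and 43.2 TPM across pLV-Control, against 39.3, 40.1 and 40.4 TPM across pLV-SEMA6A. The log2 fold change was −0.16 (SE 0.05, limma adjusted p = 0.0363). This call was lost with the libraries centred (log2 fold change −0.072, limma adjusted p = 0.304). It was also lost without pLV-Control replicate 2, the highest library, where the log2 fold change was −0.11, and without any 1 of the 3 pLV-SEMA6A libraries, where the adjusted p was at most 0.0975 from limma.

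**Figure D2:**
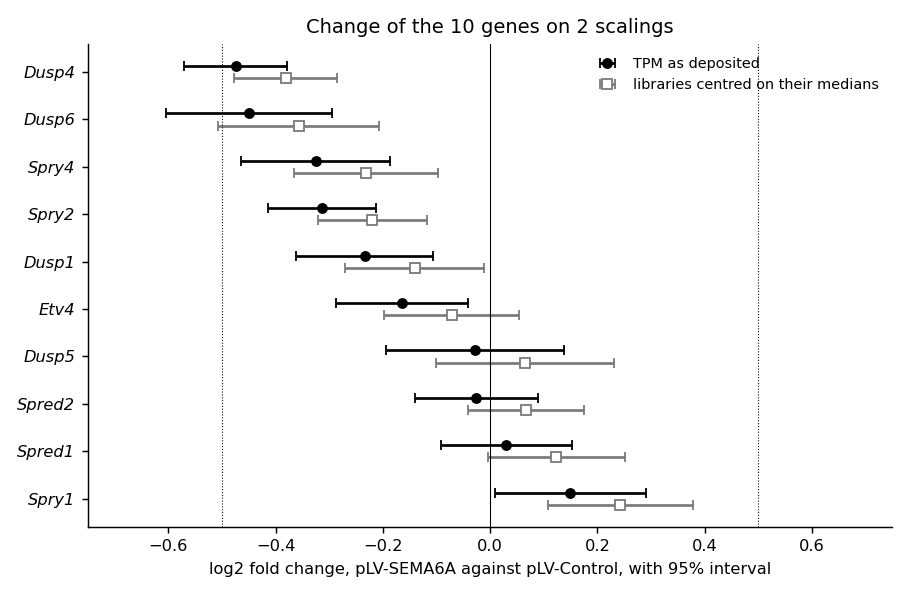
Log2 fold change of pLV-SEMA6A against pLV-Control on the log2(TPM + 1) scale (horizontal axis) with its 95% interval from limma, for each gene as deposited (filled circles) and with libraries centred on their medians (open squares). Dotted lines mark the DEG minimum of 0.5, and Dusp4, Dusp6, Spry4 and Spry2 are lower and pass the test on both scalings.

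The order of the levels changed accordingly. In pLV-Control, Dusp4 stood above every other gene, followed by Dusp6, Dusp1 and Etv4, whose neighbours in this order overlapped. Spry1, Spred2 and Spry2 came next and overlapped from neighbour to neighbour, and then Spred1, Spry4 and Dusp5, each clear of the next. In pLV-SEMA6A, Dusp6 stood below Etv4 and Dusp1 and overlapped with Spry1, Spry2 overlapped with Spred1, and Spry4 overlapped with Dusp5 at the low end.

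Ratios between genes of the same library do not depend on how libraries are scaled. The pairs were chosen after the values were seen and are given as a description. The ratio of Dusp4 to Dusp5 was 4.04, 4.79 and 4.08 in pLV-Control and 2.86, 3.44 and 3.13 in pLV-SEMA6A. That of Dusp6 to Dusp5 was 2.82, 3.01 and 2.67 in pLV-Control and 2.16, 2.18 and 1.96 in pLV-SEMA6A. The groups did not overlap in either ratio, which follows from pairing genes seen to fall with Dusp5, which did not pass. The ratio of Spry2 to Spry1 was 0.908 ± 0.063 in pLV-Control and 0.651 ± 0.037 in pLV-SEMA6A, and that of Spry4 to Spry1 was 0.679 ± 0.015 and 0.482 ± 0.039 (SD, n = 3 each). With 3 libraries against 3, an exact permutation test of a single value cannot go below p = 0.1.

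**Figure D3:**
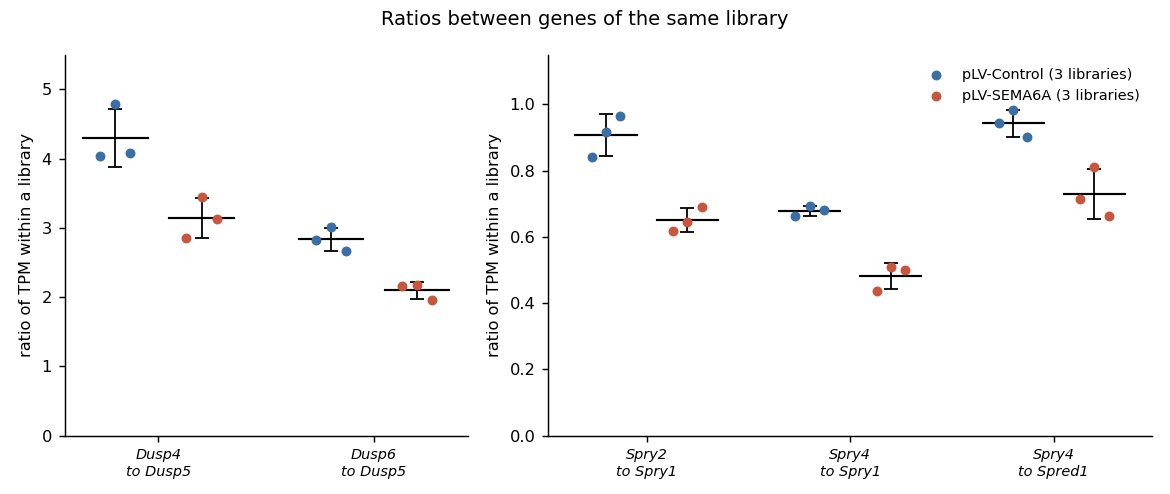
Ratio of the TPM of 2 genes within a library (vertical axis), with a point for each library, a line for the group mean and bars for the SD. In all 5 pairs the 3 pLV-SEMA6A points lie below the 3 pLV-Control points.

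Reads of overlapping genes could affect a few of these values, because the strand setting of the library is not given in the sources used here. In GENCODE M21, 0 of the 31-base stretches of the Dusp1, Dusp4, Dusp6, Spry4 and Etv4 transcripts occur in other genes on either strand. The share was 21.2% for Dusp5, mainly with the antisense gene AC137853.2, and 23.1% for Spry1, mainly with Gm42922 on the opposite strand. Gm42922 was at 0.47 to 0.99 TPM in the 6 libraries, and no level of AC137853.2 is available here. The share was 4.2% for Spred2, 0.878% for Spry2 and 0.252% for Spred1. Dusp1 lies opposite Ergic1, which was at 113 to 119 TPM in pLV-Control and 159 to 165 TPM in pLV-SEMA6A, although their transcripts share no such stretch.

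Other inhibitors of the pathway showed falls of the same size in some phosphatases. A list of 14 further MAP kinase phosphatases and feedback inhibitors had 13 tested genes, of which 5 were lower and 1 higher, with a median log2 fold change of −0.037. These shares were 38.5% lower and 7.69% higher, beside 28.2% and 19.5% of all genes tested. Dusp7, a cytoplasmic phosphatase of ERK like Dusp6, fell from 14.3 ± 0.36 TPM to 10.1 ± 0.19 TPM (SD, n = 3 each), or −0.46 in log2 (limma adjusted p = 0.00062). Dusp10 and Dusp16, which act mainly on JNK and p38, had log2 fold changes of −0.37 each. Dusp3, a small phosphatase of ERK and JNK, rose by 0.44 on the log2 scale, from 17.7 ± 0.94 to 24.4 ± 3.09 TPM (SD, n = 3 each). With the libraries centred, 3 genes of this list were lower and 4 higher, beside 19.8% and 26.9% of all genes tested. The 4 named genes kept their calls.

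Other genes induced through ERK moved in both directions. Of a list of 20, 15 were tested, and 4 were lower and 4 higher, with a median log2 fold change of −0.047 (3 lower and 6 higher with the libraries centred). That made 26.7% lower and 26.7% higher, beside 28.2% and 19.5% of all genes tested (19.8% and 26.9% with the libraries centred). Fos, Egr2, Egr3, Epha4 and Ereg were under the filter of a mean of 1 TPM. The immediate early factor Egr1 fell most, from 41.4, 39.9 and 40.4 TPM in pLV-Control to 19.76, 19.12 and 17.97 TPM in pLV-SEMA6A, so its log2 fold change came to −1.06 (SE 0.05, limma adjusted p = 1.6e-05). Ier3, an early response gene linked to cell survival, fell from 246 ± 5.66 TPM to 155 ± 3.41 TPM (SD, n = 3 each), or −0.66 in log2. Fosl1, which encodes the AP-1 subunit FRA1 and was named after its values were seen, had a log2 fold change of −0.47 and fell from 179.7 ± 3.07 to 129.1 ± 2.64 TPM (SD, n = 3 each).

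Other genes of the same list rose. Ccnd1, which encodes cyclin D1, was at 107, 106 and 108 TPM across pLV-Control, against 169, 168 and 168 TPM across pLV-SEMA6A, so its log2 fold change came to 0.65 (SE 0.02). Areg, which encodes the EGFR ligand amphiregulin, rose from 2.01 ± 0.85 TPM to 4.39 ± 0.33 TPM (SD, n = 3 each), or by 0.88 in log2 on a scale that understates low genes. Its call was lost without pLV-SEMA6A replicate 1 (log2 fold change 0.88, limma adjusted p = 0.0533) and without pLV-SEMA6A replicate 3 (0.84, limma adjusted p = 0.0612). Etv5, the closest relative of Etv4 in the list and named after its values were seen, was at 38.6 ± 0.40 TPM across pLV-Control, against 42.4 ± 1.1 TPM across pLV-SEMA6A (SD, n = 3 each). The change in log2 was 0.13 (limma adjusted p = 0.0235) and had the opposite sign to that of Etv4. It did not pass without any 1 of the pLV-Control libraries or without pLV-SEMA6A replicate 1 (limma adjusted p up to 0.0727).

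**Figure D4:**
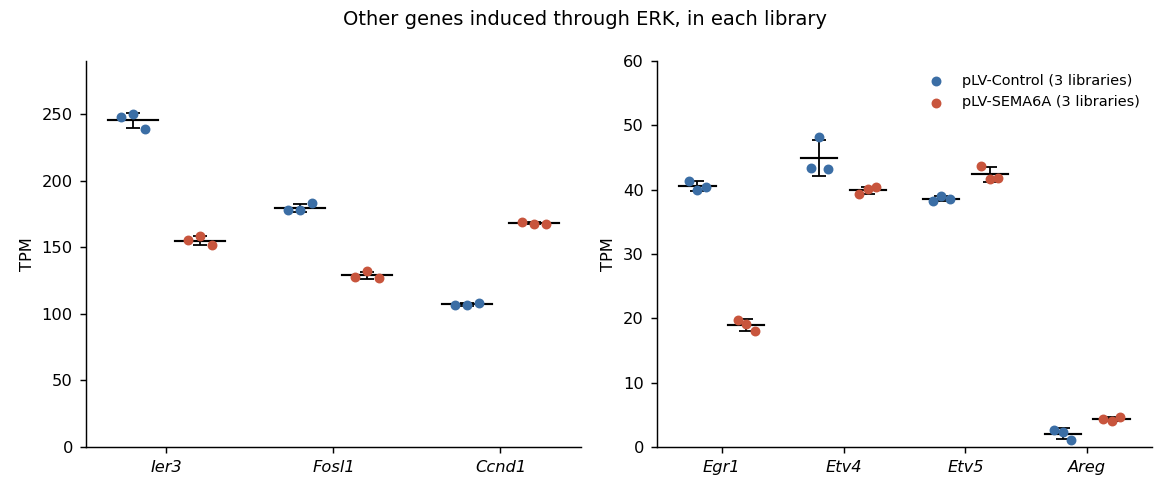
Level in TPM (vertical axes, different ranges) of 6 other genes induced through ERK and of Etv4, with a point for each library, a line for the group mean and bars for the SD. Ier3, Fosl1 and Egr1 are lower and Ccnd1, Etv5 and Areg higher in all 3 pLV-SEMA6A libraries than in any pLV-Control library.

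The kinases themselves were divided. Of 38 genes of the RAS-ERK cascade, all tested, 8 were lower and 11 higher, with a median log2 fold change of −0.014 (6 lower and 15 higher with the libraries centred). The shares of 21.1% lower and 28.9% higher stood beside 28.2% and 19.5% of all genes tested (19.8% and 26.9% with the libraries centred). Hras, a RAS GTPase, rose from 39.7 ± 0.12 TPM to 65.3 ± 1.59 TPM (SD, n = 3 each), or by 0.70 in log2 (limma adjusted p = 1.9e-05). Ksr1, a scaffold for the cascade, had a log2 fold change of −0.66 at a low level, from 4.68 ± 0.68 to 2.62 ± 0.64 TPM (SD, n = 3 each). Its call was lost without pLV-Control replicate 1 or 3 or pLV-SEMA6A replicate 3 (limma adjusted p up to 0.0555). Elk4, an ETS partner of serum response factor, had a log2 fold change of −0.56, and Rps6ka1, a kinase that ERK activates, one of −0.50. The Rps6ka1 call was lost without pLV-Control replicate 1 or 3 or pLV-SEMA6A replicate 2 or 3 (limma adjusted p up to 0.0663).

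Map2k1, Map2k2 and Mapk3, named after their values were seen, differed among themselves. Map2k1 (MEK1) fell by 0.33 and Mapk3 (ERK1) by 0.29 on the log2 scale, whereas Map2k2 (MEK2) rose by 0.31. The directions of Map2k1, Mapk3 and Map2k2 were the same with the libraries centred, where all 3 also passed.

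In the JNK, p38 and ERK5 cascades, 19 of 21 genes were tested, 4 were lower and 6 higher, and the fold changes had a median of 0.038 in log2 (3 lower and 7 higher with the libraries centred). As shares, 21.1% were lower and 31.6% higher, beside 28.2% and 19.5% of all genes tested (19.8% and 26.9% with the libraries centred). Of the p38 kinases, Mapk12 and Mapk13 had log2 fold changes of −0.76 and −0.70. Mapk14 and Mapk11, named after their values were seen, did not pass, with log2 fold changes of 0.054 and 0.019. Mapk14 had the higher level, with means of 27.7 TPM across pLV-Control and 28.8 TPM across pLV-SEMA6A. With the libraries centred, Mapk14 passed as higher (log2 fold change 0.15, limma adjusted p = 0.0355). Map2k4, a kinase that activates JNK, rose by 0.37 on the log2 scale. Mapkapk3, a target of p38, had a log2 fold change of 0.60 with means of 0.87 TPM across pLV-Control, against 1.86 TPM across pLV-SEMA6A. Its call was lost without pLV-Control replicate 1 or 2 or pLV-SEMA6A replicate 1 or 2 (limma adjusted p up to 0.0962).

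Among 17 growth factor receptors that can start the cascade, 10 were tested, and 5 were lower and 1 higher, beside 28.2% lower and 19.5% higher among all genes tested. The higher gene, Fgfr1, was named after its values were seen and lay just inside the threshold (log2 fold change 0.092, limma adjusted p = 0.0490). It did not pass with a pseudocount of 0.1, without the filter on low values, without the trend, or when any 1 library was left out. The median log2 fold change of the 10 receptors tested was −0.36, the lowest of the pathway lists. It was the midpoint of Insr (−0.46) and Fgfr2 (−0.25), both named after their values were seen. Fgfr2 did not pass (SE 0.34, limma adjusted p = 0.567). It was at 353, 226 and 140 TPM across pLV-Control, against 236, 148 and 187 TPM across pLV-SEMA6A. The median therefore depends in part on a receptor whose libraries varied widely. Centring left 5 lower and 1 higher with a median of −0.26, beside 19.8% lower and 26.9% higher among all genes tested. Axl, the receptor of GAS6, fell from 520 ± 7.76 TPM to 377 ± 1.45 TPM (SD, n = 3 each), or −0.46 in log2 (limma adjusted p = 1.3e-05). Pdgfrb fell from 10.5 ± 0.27 TPM to 6.66 ± 0.22 TPM (SD, n = 3 each), or −0.59 in log2. Erbb2 had a log2 fold change of −0.49. Pdgfra, at 1.76 ± 0.33 TPM across pLV-Control, against 0.78 ± 0.15 TPM across pLV-SEMA6A (SD, n = 3 each), had a log2 fold change of −0.63. That call was lost without pLV-Control replicate 2 or pLV-SEMA6A replicate 2 or 3 (limma adjusted p up to 0.0731).

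**Figure D5:**
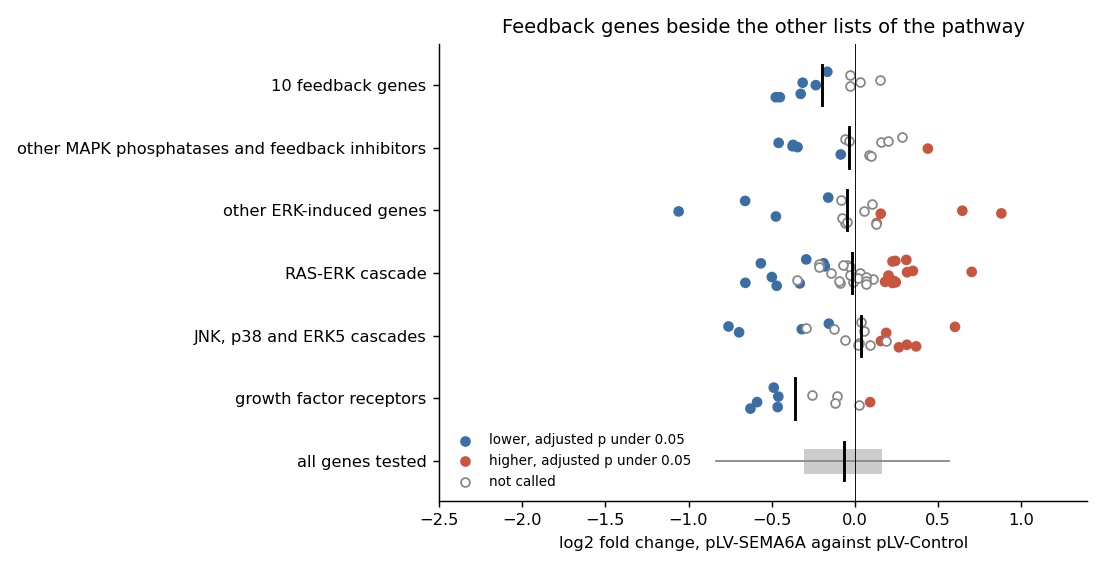
Log2 fold change of pLV-SEMA6A against pLV-Control (horizontal axis) of each tested gene in the 10 feedback genes and the 5 other lists, with a black line at the median of each list. The bottom line spans the 5th to 95th percentile of all genes tested (−0.84 to 0.57) and its box the 25th to 75th, and all 10 feedback genes lie within that span.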

How the data were processed

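Poly-A RNA of 6 SL4 libraries, 3 per group, was sequenced on an Illumina platform. The authors estimated expression with RSEM and deposited 1 TPM value per gene and library. The header names no unit, and TPM was inferred from column sums of 977400 to 986440. The submitters' processing notes name Bowtie2, HISAT, RSEM and the mm39 build. The annotation and the strand setting are not given in the sources used here, and TPM keeps no depth, so the precision from read counts is unknown. The authors' group means were not used.

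Genes whose mean over all libraries reached 1 TPM were tested on log2(TPM + 1) with limma 3.58.1 (trend, R 4.3.3) and Benjamini-Hochberg adjustment over all genes tested. Genes with an adjusted p under 0.05 were called, and DEGs also had an absolute log2 fold change above 0.5. Figures were drawn with matplotlib 3.10.9 in Python 3.11.15. Alternatives were a pseudocount of 0.1, no filter, a mean of at least 5 TPM, median centring, no trend, a replicate block and leaving out each library. All 10 genes and up to 4 called genes with the largest change from each of 5 other pathway lists are named, besides those said to be chosen after their values were seen. The 10 genes and the lists were chosen with earlier results of these data known. Spry3 was not analysed here. Promoters were matched by symbol to RefSeq sequences on GRCm38.p6, and transcripts were compared in GENCODE M21, a different build from that of the expression table.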

Additional observations from a re-analysis of the deposited data

How the results depend on the processing

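Dusp4, Dusp6, Spry2, Spry4 and Dusp1 kept their direction and passed under each alternative run, except Dusp1 with the libraries centred. The number of the 10 genes that passed was 5 or 6 throughout. It was 5 without the filter, without the trend, with the block and with centring, and 5 to 6 when each library was left out. The number of DEGs among the 10 was 0, and 0 to 1 when each library was left out, the 1 being Dusp6 without pLV-SEMA6A replicate 1. Genes near 0 changed sign. With the libraries centred, the log2 fold change was 0.065 for Dusp5 and 0.067 for Spred2, and the cause was the centring itself, which raised every value by 0.093. When each library was left out, it ranged from −0.081 to 0.013 for Dusp5, from −0.011 to 0.058 for Spred1 and from −0.054 to 0.0025 for Spred2. The labels do not say whether the replicate numbers pair the libraries. Same-numbered libraries had correlations of −0.0795 to −0.0228 between their deviations from the group means. These values show no shared signal but cannot tell how the libraries were prepared. The replicate block left 5 of the 10 genes (Etv4 was lost, adjusted p = 0.0576 from limma) and 5227 of all genes tested, against 5959. Among the other named genes that were called, Ksr1, Mapkapk3, Pdgfra and Etv5 did not pass with it (adjusted p of 0.0508 to 0.0858 from limma). It left 0 higher growth factor receptors, against 1. Without the filter on low values, Areg and Rps6ka1 did not pass (adjusted p of 0.0547 and 0.0654 from limma). Summing TPM over several gene IDs was not run, as each of the 10 genes had 1. The depth behind each TPM value is unknown.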
